A study of Mus musculus with 6 samples.

Results

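Collagen and laminin chains were examined in RNA of tumor-associated macrophages (TAMs) from wild-type (WT) and C5aR-/- mice carrying ID8 tumors. The genes were the protein-coding mouse genes named Col, number, a, number, or Lama, Lamb or Lamc followed by a number. Of the genes so named, 54 of the 56980 in the expression table are described here, and 44 of these encode collagen chains and 10 encode laminin chains. The rule reads gene symbols and no measured value.

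ID8 is a mouse ovarian cancer cell line that was injected into the peritoneal cavity. The mice were 6- to 8-week-old females, and TAMs were taken from their tumors 2 months later. They were sorted as live CD45+ CD11b+ Ly6G- F4/80+ cells, and RNA was sequenced in 3 libraries from WT mice of the C57BL/6 strain and 3 from mice of that background lacking C5aR, the receptor for the complement fragment C5a. The receptor is missing from every cell of the C5aR-/- host, whereas the injected ID8 cells were the same line in both groups. The study's legends give more mice per group for these data than there are libraries, and the labels do not say whether the libraries of a group came from separate animals, so p-values measure only the spread between these libraries, which may be in part technical.

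Collagens are built from 3 chains wound into a triple helix, and the kind of chain sets what the protein forms. Fibrillar collagens such as types I, III and V make the banded fibers of connective tissue. Type IV collagen and the laminins make the 2 networks of the basement membrane, the thin sheet beneath epithelia and mesothelium, where each laminin is a trimer of an alpha, a beta and a gamma chain. In tumors the fibers and the sheets are mostly laid down by fibroblasts, mesothelial cells and tumor cells. Macrophages are better known for degrading collagen and for taking it up, although they transcribe some collagen genes themselves.

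Of the basement membrane genes, Col4a1 and Col4a2 had the smallest unadjusted p values between the groups, and they lie head to head on 1 chromosome. Their promoter windows (RefSeq, GRCm38.p6, from 250 bases before to 50 bases after the start site) are printed 5′ to 3′ on each gene's own strand. The capitals mark the 78 bases that the windows share, read on opposite strands. The Col4a1 window is chr8:11312777-11313076 on the minus strand and the Col4a2 window is chr8:11312555-11312854 on the plus strand.

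Col4a1: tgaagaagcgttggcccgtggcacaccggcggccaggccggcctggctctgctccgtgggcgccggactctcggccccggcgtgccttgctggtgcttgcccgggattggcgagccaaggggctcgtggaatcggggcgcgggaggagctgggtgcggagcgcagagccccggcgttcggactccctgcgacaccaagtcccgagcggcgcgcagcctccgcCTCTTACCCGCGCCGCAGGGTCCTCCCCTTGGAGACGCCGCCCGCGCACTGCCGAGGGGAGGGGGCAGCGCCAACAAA
Col4a2: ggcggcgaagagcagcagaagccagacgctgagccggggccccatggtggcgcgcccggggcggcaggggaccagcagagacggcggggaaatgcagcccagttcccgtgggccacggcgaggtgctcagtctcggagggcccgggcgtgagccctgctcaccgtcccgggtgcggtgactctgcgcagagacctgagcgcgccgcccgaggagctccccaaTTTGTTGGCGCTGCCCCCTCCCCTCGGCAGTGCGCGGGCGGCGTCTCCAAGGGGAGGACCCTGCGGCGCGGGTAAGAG

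The start sites of Col4a1 and Col4a2 were 21 bases apart, and the annotated gene bodies overlap by 22 bases (GENCODE M21). Col4a5 and Col4a6 form another head-to-head pair of type IV genes, with start sites 1343 bases apart and no shared bases in these windows. They are shown for comparison, since neither gene of this pair was called between the groups. The Col4a5 window is chrX:141475169-141475468 on the plus strand, the Col4a6 window is chrX:141474027-141474326 on the minus strand, and the capitals mark a GC box (GGGCGG on either strand).

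Col4a5: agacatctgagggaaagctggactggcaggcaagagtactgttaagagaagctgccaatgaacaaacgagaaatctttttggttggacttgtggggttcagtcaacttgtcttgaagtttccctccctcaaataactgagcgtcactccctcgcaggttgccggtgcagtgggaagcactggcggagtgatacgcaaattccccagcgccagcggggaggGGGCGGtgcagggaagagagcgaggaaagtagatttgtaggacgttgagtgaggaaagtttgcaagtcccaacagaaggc
Col4a6: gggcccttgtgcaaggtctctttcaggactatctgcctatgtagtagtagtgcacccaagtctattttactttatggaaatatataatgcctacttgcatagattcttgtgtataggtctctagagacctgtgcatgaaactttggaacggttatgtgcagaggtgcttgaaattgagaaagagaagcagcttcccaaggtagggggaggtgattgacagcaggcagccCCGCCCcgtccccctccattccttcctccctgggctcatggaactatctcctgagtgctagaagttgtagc

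G and C made up 74.0% of the Col4a1 window and 73.7% of the Col4a2 window, against 52.7% for Col4a5 and 48.3% for Col4a6. The median over all RefSeq windows was 52.7%, and the 95th percentile was 73.7%. A GC box was present in each of the 4 windows, as in 35.7% of all 32851 windows searched on both strands. The 1 GC box of the Col4a1 window and the box of the Col4a2 window that starts 7 bases after its start site are the same bases, chr8:11312812-11312817, inside the shared stretch. CCAAT, present in 37.4% of all windows, was found in the windows of Col4a1, Col4a2 and Col4a5 and not in that of Col4a6. TATAAA (13.6% of all windows) and ACGTG (19.6%) were not found in the 4 windows. The motif matches did not overlap one another within a window. Of the 54 genes, 40 had a RefSeq window, and across their 44 windows a GC box was found in 26 (59.1%). CCAAT was found in 14 of the 44 (31.8%), TATAAA in 5 (11.4%) and ACGTG in 5 (11.4%). These matches describe letters in the windows and were not tested as binding sites.

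Values are given as TPM, the share of transcripts that a gene takes in its library after correction for length, scaled to the same total in each library, so that levels can be compared between genes. Where 3 values are given for a group, they belong to TAM 1, TAM 2 and TAM 3 of that group in this order. Differences are C5aR-/- minus WT on the log2(TPM + 1) scale, from limma fitted to the 14776 genes with at least 1 TPM in at least 3 of the 6 libraries, with Benjamini-Hochberg adjustment over all of them. On this scale the change of genes with low values is understated.

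C5ar1, the deleted gene, was at 86.5, 37.3 and 16.2 TPM in WT TAMs and 0.38, 0.11 and 0.05 TPM in C5aR-/- TAMs, a difference of -5.04 (SE 0.56, 95% CI -6.38 to -3.71, unadjusted p = 5.4e-05, limma adjusted p = 0.0666). The levels followed the labels in all 6 libraries. Each of the 10 macrophage markers was detected above the filter in TAMs, led by the complement genes C1qa, at 864, 384 and 339.6 TPM in WT TAMs and 1163, 646 and 409 TPM in C5aR-/- TAMs, and C1qb. Markers of cells that a CD45+ gate would leave out were present as well, since all 10 mesothelial and 7 of 10 epithelial markers passed the filter. Each library held between 14393 and 15015 genes at 1 TPM or more, and since TPM does not retain sequencing depth, counting error could not be worked out for any value. C5aR-/- TAM 1 stood apart from the other C5aR-/- libraries, with Pearson correlations over log2 values of 0.931 with TAM 2 and 0.886 with TAM 3, against 0.960 between the latter 2. With WT TAM 1, TAM 2 and TAM 3 in turn, C5aR-/- TAM 1 correlated at 0.939, 0.928 and 0.912. The values were 0.949, 0.942 and 0.940 for C5aR-/- TAM 2 and 0.904, 0.904 and 0.917 for C5aR-/- TAM 3.

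Of the 54 collagen and laminin genes, 27 passed the filter and were tested. Col22a1 passed through its WT values alone. Another 5 genes (Col9a1, Col9a2, Col13a1, Col19a1 and Col25a1) were listed at 0 in all libraries, 15 stayed above 0 but under 1 TPM everywhere, and 7 reached 1 TPM in at least 1 library but not in enough of them (Lama1, Lamc3, Col6a6, Col7a1, Col11a2, Col24a1 and Col27a1). At the unadjusted threshold (p under 0.05 and at least a 2-fold difference on this scale), 7 of the 27 passed, 3 higher and 4 lower in C5aR-/- TAMs. Over all tested genes this threshold called 4.96%, with 2.13% higher and 2.84% lower. At an adjusted p under 0.05 limma called 0 genes of the whole table, although 733 passed the unadjusted threshold and 2133 had an unadjusted p under 0.05 at any fold. The genes higher in C5aR-/- TAMs were Col4a1, Col4a2 and Col16a1, and those lower were Col1a2, Col6a2, Col17a1 and Col22a1. Leaving aside Col22a1, which the filter admitted through the group where it was high, 6 of 26 passed, 3 in each direction. In bulk RNA, fewer cells of a type and less RNA per cell cannot be told apart.

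Without C5aR-/- TAM 1 the count was 14 of 27, with 9 higher and 5 lower, and the share over all genes was then 8.57%. Col22a1 was among the 5 lower. At the adjusted threshold limma then called 356 genes of the whole table, among them Col4a1 (adjusted p = 0.0177, 0.0177 to 0.329 over the alternatives), Col4a2 (0.0245, 0.0245 to 0.329), Col17a1 (0.0280, 0.0280 to 0.329), Col5a1 (0.0367, 0.0367 to 0.854) and Lamb1 (0.0407, 0.0407 to 0.640). In 9 of the 27 genes the values of the groups did not overlap, 4 higher and 5 lower in C5aR-/- TAMs (8 of 26 without Col22a1), against 21.3% of all tested genes, 8.84% higher and 12.5% lower. The fitted differences were above 0 for 12 genes and below 0 for 15, beside 44.5% above 0 over all tested genes. Their median was -0.14 (-0.11 without Col22a1), beside -0.05 over all tested genes.

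**Figure D1:**
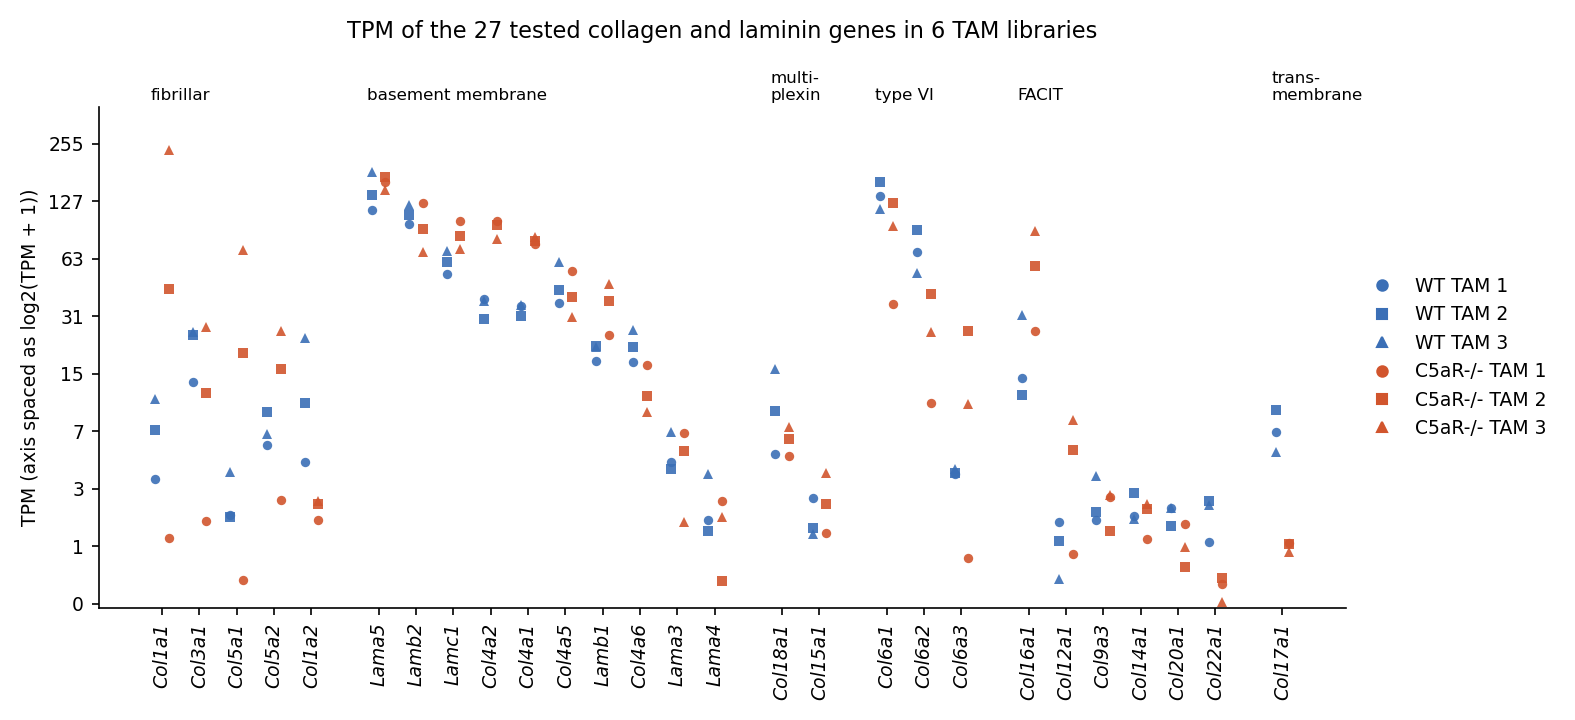
TPM of the 27 tested collagen and laminin genes in each of the 6 TAM libraries, on an axis spaced as log2(TPM + 1), with genes grouped by class and ordered by mean level within it. Blue marks WT and orange C5aR-/- libraries; Col4a1 and Col4a2 form separate groups, while Col1a1 runs from 1.21 to 236 TPM among the C5aR-/- libraries alone.

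The basement membrane genes were the most abundant class. Summed over the 16 genes of this class, the level was 419, 464 and 566 TPM in WT TAMs and 667, 614 and 538 TPM in C5aR-/- TAMs. They made up 56.7 to 64.3% of the collagen and laminin TPM in WT libraries and 46.4 to 87.2% in C5aR-/- libraries. Of the 10 that were tested, 2 passed the unadjusted threshold as higher and 0 as lower, and 5 had groups that did not overlap. Over all tested genes 2.13% passed as higher, and the groups did not overlap in 21.3%. The median difference of the class was 0.0.

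Col4a1 and Col4a2 encode the 2 chains of the common type IV collagen trimer, the scaffold of nearly every basement membrane. Col4a1 (ENSMUSG00000031502, chr8:11198423-11312826, minus strand, GRCm38) was at 35.1, 31.2 and 35.5 TPM in WT TAMs and 75.2, 78.5 and 82.2 TPM in C5aR-/- TAMs. Col4a2 (ENSMUSG00000031503, chr8:11312805-11449287, plus strand) was at 38.2, 30.0 and 37.7 TPM in WT TAMs and 99.6, 95.7 and 80.5 TPM in C5aR-/- TAMs. In both genes the lowest C5aR-/- library was above the highest WT library, and the spread within each group was small. The means were 34.0 ± 2.41 TPM in WT TAMs and 78.6 ± 3.47 TPM in C5aR-/- TAMs for Col4a1 (± SD, n = 3), a ratio of 2.32, and 35.3 ± 4.58 TPM in WT TAMs and 91.9 ± 10.1 TPM in C5aR-/- TAMs for Col4a2, a ratio of 2.60. The difference was 1.19 (SE 0.12, 95% CI 0.90 to 1.48, unadjusted p = 3.2e-05, limma adjusted p = 0.0666) for Col4a1 and 1.36 (SE 0.15, 95% CI 0.99 to 1.73, unadjusted p = 6.5e-05, limma adjusted p = 0.0666) for Col4a2. By unadjusted p these genes ranked 7 and 12 of 14776. The Col4a2 to Col4a1 ratio stayed between 0.963 and 1.09 in WT and between 0.980 and 1.32 in C5aR-/- libraries. Both differences changed little when any library was left out, from 1.13 to 1.22 for Col4a1 and from 1.25 to 1.45 for Col4a2.

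None of the other 4 type IV chains was called, and the difference between chains was not tested. Col4a5, whose product forms trimers with that of Col4a6 in some epithelial basement membranes, was at 36.4, 43.0 and 60.8 TPM in WT TAMs and 54.1, 39.4 and 30.9 TPM in C5aR-/- TAMs. The groups overlapped, and the difference was -0.17 (SE 0.27, 95% CI -0.81 to 0.46, unadjusted p = 0.537, limma adjusted p = 0.807). Col4a6 was at 17.4, 21.2 and 26.1 TPM in WT TAMs and 16.8, 11.3 and 9.07 TPM in C5aR-/- TAMs, with each C5aR-/- library below each WT library, and the difference of -0.78 (SE 0.26, 95% CI -1.40 to -0.15, unadjusted p = 0.0222, limma adjusted p = 0.269) did not reach 2-fold. Without C5aR-/- TAM 1 it did, at -1.0. The Col4a5 to Col4a6 ratio was 2.10, 2.02 and 2.33 in WT and 3.21, 3.50 and 3.40 in C5aR-/- libraries. Col4a3 and Col4a4, the chains best known from the kidney glomerulus, stayed at or under 0.10 TPM in every library.

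**Figure D2:**
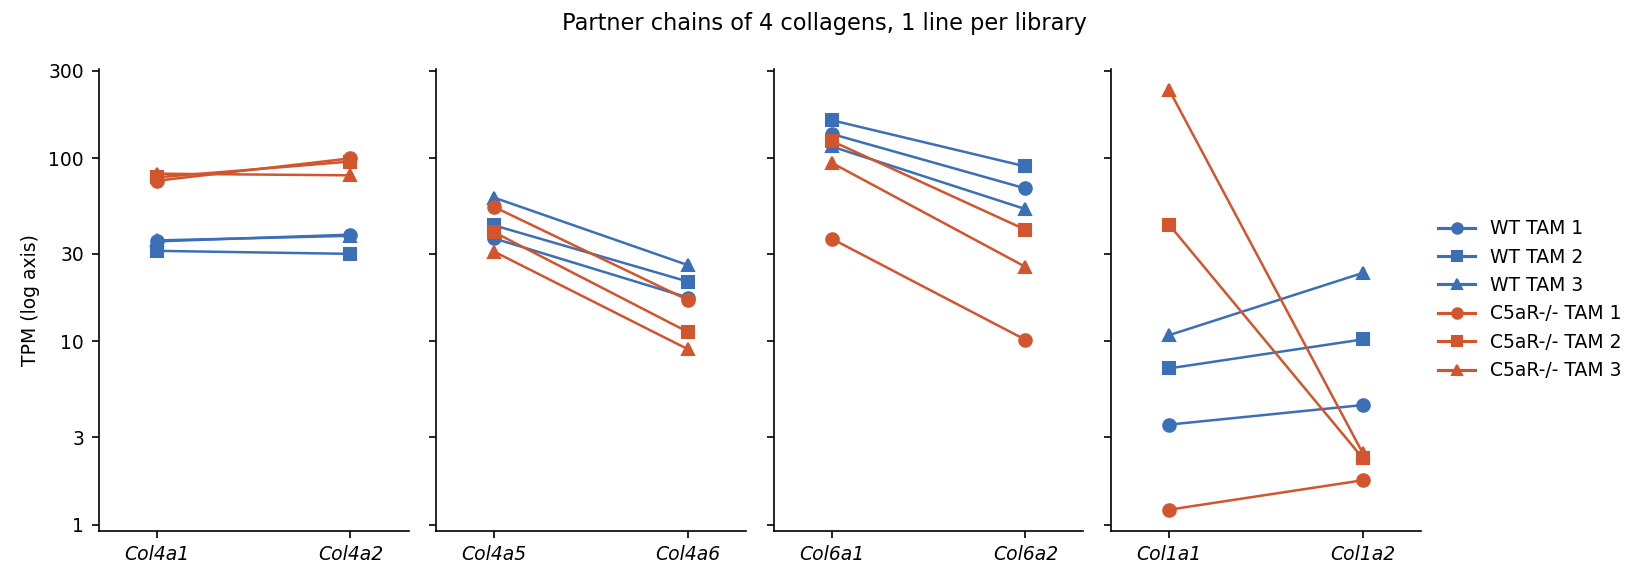
TPM on a log axis of 4 pairs of collagen chains that assemble together, with 1 line per library (blue WT, orange C5aR-/-). The lines of Col4a1 and Col4a2 are flat and separate by group, those of Col4a5 to Col4a6 and of Col6a1 to Col6a2 slope down in all 6 libraries, and the Col1a1 to Col1a2 line falls steeply in C5aR-/- TAM 2 and TAM 3 but not in the other 4 libraries.

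Among the laminin chains, 6 of 10 were tested and 0 passed the unadjusted threshold in limma. An unadjusted p under 0.05 was found for 2 of the 6 (Lamc1 and Lamb1), and for 14.4% of all tested genes. Lama5, Lamb2 and Lamc1, which can assemble into 1 trimer, were the 3 most abundant basement membrane genes by the mean of all 6 libraries, although in C5aR-/- TAMs the mean of Col4a2 was above that of Lamc1. Lama5, the main alpha chain of mature epithelial basement membranes, was at 115, 137 and 181 TPM in WT TAMs and 162, 170.1 and 145 TPM in C5aR-/- TAMs. Lamb2 was at 96.8, 108 and 121 TPM in WT TAMs and 124, 90.7 and 68.4 TPM in C5aR-/- TAMs. Their groups overlapped, with differences of 0.16 (SE 0.19, 95% CI -0.28 to 0.61, unadjusted p = 0.412, limma adjusted p = 0.729) and -0.23 (SE 0.23, 95% CI -0.78 to 0.31, unadjusted p = 0.343, limma adjusted p = 0.682). Lamc1, the gamma chain of most laminins, was at 52.5, 60.7 and 69.7 TPM in WT TAMs and 99.6, 82.9 and 71.2 TPM in C5aR-/- TAMs. The lowest C5aR-/- value was just above the highest WT value, and the difference was 0.46 (SE 0.18, 95% CI 0.04 to 0.88, unadjusted p = 0.0347, limma adjusted p = 0.31), short of 2-fold.

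Lama3, an alpha chain of epithelial laminins, was at 4.55, 4.1 and 6.91 TPM in WT TAMs and 6.84, 5.34 and 1.69 TPM in C5aR-/- TAMs, a difference of -0.25 (SE 0.43, limma adjusted p = 0.83), and Lamb3, a beta chain of epithelia, stayed under 1 TPM, at 0.17, 0.9 and 0.09 TPM in WT TAMs and 0.98, 0.93 and 0.38 TPM in C5aR-/- TAMs. Lamb1, the other widespread beta chain, was at 17.7, 21.3 and 21.2 TPM in WT TAMs and 24.5, 37.4 and 46.1 TPM in C5aR-/- TAMs. The groups did not overlap, and the difference of 0.77 (SE 0.24, 95% CI 0.19 to 1.35, unadjusted p = 0.0165, limma adjusted p = 0.241) reached 2-fold only without C5aR-/- TAM 1 (1.02). The Lamb1 to Lamb2 ratio was 0.183, 0.198 and 0.175 in WT and 0.197, 0.412 and 0.674 in C5aR-/- libraries.

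Lama4, the alpha chain of vessel walls, was low, at 1.76, 1.4 and 3.8 TPM in WT TAMs and 2.43, 0.31 and 1.83 TPM in C5aR-/- TAMs, with a difference of -0.44 (SE 0.45, limma adjusted p = 0.697). Below the filter, Lama1 was at 2.01, 4.13 and 0.62 TPM in WT TAMs and 0.22, 0.94 and 0.61 TPM in C5aR-/- TAMs, and Lamc3 at 0.93, 1.58 and 1.78 TPM in WT TAMs and 0.33, 0.75 and 0.03 TPM in C5aR-/- TAMs. Lama2 did not exceed 0.19 TPM. The endothelial markers summed to 122, 126 and 153 TPM in WT and 135, 119 and 87.6 TPM in C5aR-/- TAMs, and 7 of 10 passed the filter. Cdh5, Tie1 and Emcn stayed under 1 TPM in every library. Pecam1 was at 6.84 to 12.5 TPM, Robo4 at 4.66 to 11.8 TPM, Kdr at 0.54 to 5.49 TPM and Tek at 0.16 to 14.3 TPM.

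Col15a1 and Col18a1 encode multiplexins, collagens that link the basement membrane to the tissue beneath. Col18a1 was at 5.05, 9.28 and 15.9 TPM in WT TAMs and 4.96, 6.29 and 7.42 TPM in C5aR-/- TAMs, a difference of -0.51 (SE 0.38, limma adjusted p = 0.592). Col15a1 was at 2.58, 1.48 and 1.31 TPM in WT TAMs and 1.34, 2.31 and 3.85 TPM in C5aR-/- TAMs, a difference of 0.29 (SE 0.34, limma adjusted p = 0.737). The groups overlapped in both. Col7a1, the anchoring fibril collagen, was under the filter at 0.13 to 1.54 TPM.

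The fibrillar collagens varied far more between libraries. Summed over the 11 genes of the class, they reached 30.4, 54.6 and 74.9 TPM in WT TAMs and 9.35, 98.3 and 373 TPM in C5aR-/- TAMs. Of the 5 tested genes, 1 passed the unadjusted threshold, Col1a2, which was lower in C5aR-/- TAMs, against 2.84% of all tested genes as lower. All 5 had their lowest value of the 6 libraries in C5aR-/- TAM 1, and 4 had their highest in C5aR-/- TAM 3. Over all tested genes, C5aR-/- TAM 1 held the lowest value in 24.6% and TAM 3 the highest in 23.9%. The median SD within a group, on the log2 scale, was 0.49 in WT and 1.72 in C5aR-/- TAMs for the fibrillar genes. It was 0.24 and 0.41 for the basement membrane genes, and 0.21 and 0.30 over all tested genes.

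Col1a1 and Col1a2 encode the 2 chains of type I collagen, the main fiber of connective tissue, which takes 2 chains from Col1a1 for each chain from Col1a2. Col1a1 (ENSMUSG00000001506, chr11:94936224-94953042, plus strand) was at 3.52, 7.13 and 10.8 TPM in WT TAMs and 1.21, 43.3 and 236 TPM in C5aR-/- TAMs. The C5aR-/- values lay below, above and far above those of WT, and the difference of 1.91 (SE 1.56, 95% CI -1.81 to 5.64, unadjusted p = 0.262, limma adjusted p = 0.618) was within the spread. Col1a2 (ENSMUSG00000029661, chr6:4504814-4541544, plus strand) was at 4.5, 10.3 and 23.6 TPM in WT TAMs and 1.75, 2.31 and 2.46 TPM in C5aR-/- TAMs. Each C5aR-/- library was below each WT library, and the difference was -1.87 (SE 0.52, 95% CI -3.10 to -0.63, unadjusted p = 0.00945, limma adjusted p = 0.207). The Col1a1 to Col1a2 ratio was 0.782, 0.695 and 0.458 in WT and 0.691 in C5aR-/- TAM 1, but 18.8 in TAM 2 and 95.9 in TAM 3. Col1a1 alone made up 11.6 to 14.5% of the fibrillar TPM in WT, 12.9% in C5aR-/- TAM 1, 44.1% in TAM 2 and 63.2% in TAM 3. Without C5aR-/- TAM 1 the Col1a1 difference passed the unadjusted threshold, at 3.76, and without TAM 3 it was 0.39.

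Col3a1, the fibril partner of type I in soft tissue, was at 13.4, 24.4 and 25.6 TPM in WT TAMs and 1.71, 11.7 and 27.2 TPM in C5aR-/- TAMs, a difference of -1.11 (SE 0.81, limma adjusted p = 0.574). Without C5aR-/- TAM 3 it passed the unadjusted threshold as lower, at -1.87. The Col1a1 to Col3a1 ratio was 0.262, 0.292 and 0.422 in WT and 0.708, 3.72 and 8.67 in C5aR-/- libraries.

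Col5a1 and Col5a2, chains of the type V collagen that seeds fibrils and limits their width, were lowest in C5aR-/- TAM 1 and highest in C5aR-/- TAM 3, as Col1a1 was. Col5a1 was at 1.93, 1.83 and 3.87 TPM in WT TAMs and 0.33, 19.5 and 70.2 TPM in C5aR-/- TAMs, with a difference of 1.86 (SE 1.34, 95% CI -1.33 to 5.05, unadjusted p = 0.208, limma adjusted p = 0.568). Col5a2 was at 5.75, 9.04 and 6.72 TPM in WT TAMs and 2.51, 15.9 and 25.7 TPM in C5aR-/- TAMs, with a difference of 0.53 (SE 0.71, limma adjusted p = 0.771). Both passed the unadjusted threshold without C5aR-/- TAM 1, Col5a1 at 3.48 and Col5a2 at 1.40. Col5a2 turned to -0.07 without TAM 3. Col3a1 and Col5a2 lie 24.6 kb apart on chromosome 1. Col27a1, under the filter, was at 0.75, 0.85 and 0.56 TPM in WT TAMs and 0.84, 4.64 and 9.63 TPM in C5aR-/- TAMs. Col24a1 reached 2.06 TPM in WT TAM 3 and at most 0.35 TPM elsewhere, Col11a2 ranged from 0.32 to 1.37 TPM, and Col2a1, Col5a3 and Col11a1 stayed under 0.50 TPM.

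**Figure D3:**
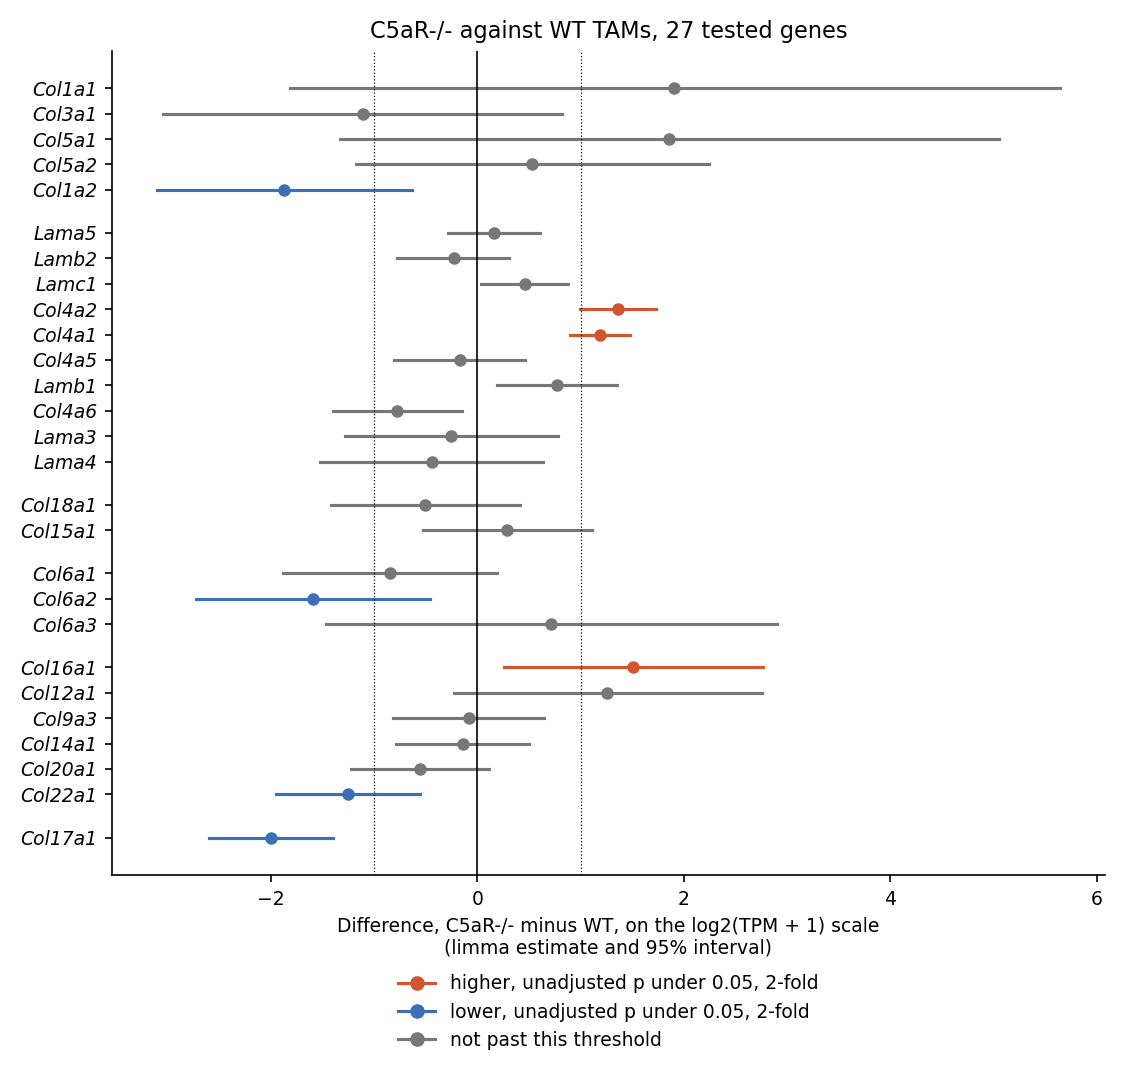
Difference between C5aR-/- and WT TAMs on the log2(TPM + 1) scale for the 27 tested genes, as the limma estimate with its 95% interval; orange and blue mark genes past the unadjusted threshold and dotted lines a 2-fold difference. The intervals of Col4a1 (0.90 to 1.48) and Col4a2 (0.99 to 1.73) are narrow, while that of Col1a1 runs from -1.81 to 5.64.

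Type VI collagen, a beaded filament around cells, had the highest sum after the basement membrane genes in all 3 WT libraries. Its genes summed to 209, 256 and 174 TPM in WT and 47.6, 192 and 130 TPM in C5aR-/- TAMs. Col6a1 was at 135, 161 and 116 TPM in WT TAMs and 36.3, 124 and 94.2 TPM in C5aR-/- TAMs, a difference of -0.85 (SE 0.43, 95% CI -1.88 to 0.19, unadjusted p = 0.0944, limma adjusted p = 0.427). Col6a2 (ENSMUSG00000020241, chr10:76595762-76623630, minus strand) was at 68.3, 90.1 and 52.7 TPM in WT TAMs and 10.2, 40.7 and 25.5 TPM in C5aR-/- TAMs. Each C5aR-/- library was below each WT library for Col6a2, with a difference of -1.59 (SE 0.48, 95% CI -2.72 to -0.46, unadjusted p = 0.0132, limma adjusted p = 0.225). Col6a1 passed the unadjusted threshold as lower only without C5aR-/- TAM 2 (-1.20).

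The Col6a1 to Col6a2 ratio was 1.98, 1.79 and 2.19 in WT and 3.55, 3.04 and 3.69 in C5aR-/- libraries, and the genes lie 85.2 kb apart on chromosome 10. Col6a3, the chain that completes the usual trimer, was at 3.78, 3.84 and 4.07 TPM in WT TAMs and 0.74, 25.8 and 10.1 TPM in C5aR-/- TAMs. Its WT values were nearly equal and its C5aR-/- values lay on both sides of them, with a difference of 0.71 (SE 0.91, limma adjusted p = 0.76). Col6a3 passed the unadjusted threshold as higher without C5aR-/- TAM 1 (1.82) and turned to -0.16 without TAM 2. Col6a4, Col6a5 and Col6a6 were under the filter, at most at 1.18 TPM.

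The collagens that sit on fibrils rather than forming them (the FACIT group) included 6 tested genes. Of these, Col16a1 passed the unadjusted threshold as higher, against 2.13% of all tested genes as higher. Col22a1 passed it as lower, but the filter admitted Col22a1 through its WT values alone. Col16a1 (ENSMUSG00000040690, chr4:130047840-130099283, plus strand), which bridges cells and fibrils, was at 14.3, 11.4 and 31.4 TPM in WT TAMs and 25.9, 58.0 and 89.0 TPM in C5aR-/- TAMs. The groups overlapped at a single pair of values, WT TAM 3 and C5aR-/- TAM 1, and the difference was 1.51 (SE 0.53, 95% CI 0.26 to 2.77, unadjusted p = 0.0247, limma adjusted p = 0.279). This call was lost when WT TAM 1, WT TAM 2, C5aR-/- TAM 2 or C5aR-/- TAM 3 was left out, with unadjusted p of up to 0.0811. Col22a1, a collagen of tissue junctions, was at 1.11, 2.46 and 2.29 TPM in WT TAMs and 0.27, 0.37 and 0.02 TPM in C5aR-/- TAMs. Only its WT values reached the filter, so its difference of -1.25 is given as a description. Col12a1 was at 1.67, 1.13 and 0.34 TPM in WT TAMs and 0.81, 5.37 and 8.17 TPM in C5aR-/- TAMs, a difference of 1.26 (SE 0.62, limma adjusted p = 0.41), and it passed the unadjusted threshold only without C5aR-/- TAM 1 (1.96). Col9a3, Col14a1 and Col20a1 had differences of -0.08, -0.14 and -0.55 and did not exceed 3.64 TPM.

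Col17a1, a transmembrane collagen that ties epithelial cells to the basement membrane, had the lowest unadjusted p after the Col4a1 and Col4a2 pair, rank 23 of 14776. Col17a1 (ENSMUSG00000025064, chr19:47646344-47692094, minus strand) was at 6.97, 9.38 and 5.25 TPM in WT TAMs and 1.08, 1.06 and 0.87 TPM in C5aR-/- TAMs. The groups were well apart, and the difference was -2.00 (SE 0.25, 95% CI -2.60 to -1.40, unadjusted p = 1.2e-04, limma adjusted p = 0.0666). It kept between -2.18 and -1.82 when any library was left out. Col23a1 did not exceed 0.71 TPM, and the network collagens Col8a1, Col8a2 and Col10a1, with Col26a1 and Col28a1, did not exceed 0.41 TPM.

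Enzymes that make and cross-link collagen were examined next, as a list of 30 genes. Of these, 27 were tested, 7 passed the unadjusted threshold as higher in C5aR-/- TAMs and 0 as lower, and the median difference was 0.44. Over all tested genes 2.13% passed as higher. Loxl2, which cross-links type IV collagen, was at 31.6, 31.6 and 35.8 TPM in WT TAMs and 66.2, 79.9 and 83.4 TPM in C5aR-/- TAMs. Each C5aR-/- library was above each WT library, and the difference was 1.19 (SE 0.14, 95% CI 0.85 to 1.52, unadjusted p = 8.6e-05, limma adjusted p = 0.0666), of a size like that of Col4a1. The related oxidases were Loxl1, at 22.2, 29.9 and 44.7 TPM in WT TAMs and 44.6, 67.7 and 82.6 TPM in C5aR-/- TAMs with a difference of 1.0 (SE 0.32, limma adjusted p = 0.242), and Loxl4, at 2.02, 1.83 and 2.31 TPM in WT TAMs and 3.49, 11.2 and 9.77 TPM in C5aR-/- TAMs with a difference of 1.46 (SE 0.40, limma adjusted p = 0.199).

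P4ha2, a prolyl 4-hydroxylase subunit needed for a stable helix, was at 5.95, 4.28 and 5.4 TPM in WT TAMs and 11.5, 18.4 and 32.5 TPM in C5aR-/- TAMs, a difference of 1.71 (SE 0.36, limma adjusted p = 0.133). P3h2, which hydroxylates type IV collagen, was at 1.94, 1.74 and 1.66 TPM in WT TAMs and 2.72, 6.66 and 6.62 TPM in C5aR-/- TAMs, a difference of 1.11 (SE 0.33, limma adjusted p = 0.224). Plod1, a lysyl hydroxylase, was at 16.6, 9.19 and 7.27 TPM in WT TAMs and 26.5, 24.0 and 17.6 TPM in C5aR-/- TAMs, a difference of 1.04 (SE 0.31, limma adjusted p = 0.231). The seventh was Lox, with a difference of 1.45. Loxl2 and P4ha2 passed under every alternative run, and Loxl4 under all but the filter at 5 TPM, which left it untested. The count was 9 without C5aR-/- TAM 1, where 4.19% of all genes passed as higher. It was 3 without C5aR-/- TAM 2 (1.89% of all genes), 4 without C5aR-/- TAM 3 (2.19%) or WT TAM 2 (1.65%), and 4 with the filter at 5 TPM (1.80%), which tests fewer genes. The list also held abundant genes of collagen folding whose groups overlapped, such as Serpinh1, the collagen chaperone, at 343, 440.1 and 394 TPM in WT TAMs and 221, 496 and 582 TPM in C5aR-/- TAMs.

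Proteins that bind the basement membrane networks formed a list of 15, of which 12 were tested, with a median difference of 0.16. Of these, 2 passed the unadjusted threshold as higher and 1 as lower, against 2.13% and 2.84% of all tested genes. The groups did not overlap in 5, 3 higher and 2 lower, against 8.84% and 12.5% of all tested genes. Tinagl1, a matrix protein that binds laminin, was at 52.7, 39.7 and 77.8 TPM in WT TAMs and 112, 138 and 134 TPM in C5aR-/- TAMs, a difference of 1.21 (SE 0.25, limma adjusted p = 0.129). Fbln2, a fibulin of basement membranes and elastic fibers, was at 86.9, 103 and 158 TPM in WT TAMs and 303, 320.2 and 581 TPM in C5aR-/- TAMs, a difference of 1.76 (SE 0.32, limma adjusted p = 0.1). In both genes each C5aR-/- library was above each WT library, and without WT TAM 2 the Tinagl1 difference was under 2-fold, at 0.98. Papln was at 6.5, 10.6 and 7.93 TPM in WT TAMs and 5.44, 5.04 and 1.37 TPM in C5aR-/- TAMs and passed the threshold as lower, with a difference of -1.03 (SE 0.42, limma adjusted p = 0.34), a call lost without any 1 WT library or C5aR-/- TAM 3, under both other scalings, with a pseudocount of 0.1, without the filter and with the filter at 5 TPM. The nidogens, which link laminin to type IV collagen, were near the filter, Nid1 at 0.15 to 1.60 TPM and Nid2 at 0.44 to 2.38 TPM. Each C5aR-/- value of Nid2 was below each WT value.

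Among 16 proteins that bind or accompany fibrils, 9 were tested and 1 passed the unadjusted threshold (11.1%, against 4.96% of all tested genes), with a median difference of -0.08. It was Bgn, a small proteoglycan of collagen fibrils, at 183, 171 and 215 TPM in WT TAMs and 196, 601 and 539.6 TPM in C5aR-/- TAMs, a difference of 1.08 (SE 0.42, limma adjusted p = 0.318). WT TAM 3 lay above C5aR-/- TAM 1, so the groups overlapped, and the call was lost without any 1 library other than C5aR-/- TAM 1. Of 17 receptors for collagen and laminin, 14 were tested and 1 passed (7.14%, against 4.96% of all tested genes), with a median of 0.20. It was Lair1, an inhibitory collagen receptor of leukocytes, at 16.9, 6.32 and 19.8 TPM in WT TAMs and 52.1, 33.9 and 31.6 TPM in C5aR-/- TAMs, a difference of 1.49 (SE 0.42, limma adjusted p = 0.21), with groups that did not overlap.

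Markers of the cell types that could contribute these transcripts moved as follows, and their part in the results was not tested. The 10 macrophage markers summed to 3176, 1456 and 1227 TPM in WT and 4074, 2298 and 1443 TPM in C5aR-/- TAMs, and 0 of 10 passed the unadjusted threshold. Within each group TAM 1 had the highest macrophage sum and the lowest fibrillar collagen sum, and TAM 3 the lowest macrophage sum and the highest fibrillar sum. For the basement membrane genes this order held in WT and was the opposite in C5aR-/- TAMs.

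The 10 mesothelial markers were all tested, and 6 passed the unadjusted threshold as lower in C5aR-/- TAMs and 0 as higher, against 2.84% of all tested genes as lower. The count lower was 2 without WT TAM 3 (2.74% of all genes), 3 without C5aR-/- TAM 3 (2.28%), and 4 without WT TAM 2 (2.19%) or with the replicate number as a block (3.16%). They summed to 1383, 1597 and 1907 TPM in WT and 1263, 1192 and 846 TPM in C5aR-/- TAMs. Wt1, the highest of them by mean level, was at 338, 361 and 451 TPM in WT TAMs and 395, 342 and 331 TPM in C5aR-/- TAMs. Its groups overlapped, and its difference was -0.10. The 6 called lower were Muc16 (-2.52), Lrrn4 (-1.96), Upk3b (-1.48), Rspo1 (-1.17), Nkain4 (-1.17) and Upk1b (-1.12). Muc16 was at 142, 147 and 148 TPM in WT TAMs and 39.2, 36.6 and 10.15 TPM in C5aR-/- TAMs. The mesothelial sums of C5aR-/- TAMs were all below those of WT TAMs. The same held for Col1a2, Col4a6, Col6a2 and Col17a1, which are named because their groups did not overlap in this direction. Such groups were found in 12.5% of all tested genes.

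In the other direction, 3 tested markers had groups that did not overlap, with C5aR-/- TAMs above WT. They were chosen after their values were seen, and 8.84% of all tested genes had such groups, Col4a1 and Col4a2 among them. Of the 10 mesothelial markers, 1 had a difference above 0 and 9 had a difference below 0. Of the 7 tested epithelial markers, 3 were above 0 and 4 below. Of the 10 macrophage markers, 7 were above 0 and 3 below. Msln, a mesothelial and ovarian tumor antigen, was at 145, 135 and 179.6 TPM in WT TAMs and 268, 284 and 288 TPM in C5aR-/- TAMs, a difference of 0.88 (SE 0.14, limma adjusted p = 0.0922). Krt8, an epithelial keratin, was at 465, 455 and 460.2 TPM in WT TAMs and 758, 624 and 743 TPM in C5aR-/- TAMs, a difference of 0.62 (SE 0.14, limma adjusted p = 0.14). Fcgr1, a macrophage Fc receptor, was at 13.6, 8.6 and 11.3 TPM in WT TAMs and 26.6, 18.2 and 16.9 TPM in C5aR-/- TAMs, a difference of 0.82 (SE 0.24, limma adjusted p = 0.225). None of the 3 reached 2-fold.

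The fibroblast list summed to 394, 449 and 587 TPM in WT and 564, 406 and 228 TPM in C5aR-/- TAMs, most of it Dcn, which is also on the list of fibril partners. Of its 10 genes 3 were tested and 1, Thy1, passed as lower, with a limma unadjusted p of 0.0477, against 2.84% of all tested genes as lower. That call was lost without any 1 library other than WT TAM 1 and C5aR-/- TAM 1, and with the replicate block, without the variance trend or without the filter. Tcf21 was listed at 0 in all libraries, Pdgfrb, Dpt and Lum stayed under 1 TPM, and Fap and Pi16 did not exceed 3.02 TPM. Pdgfra was at 9.56, 13.5 and 13.0 TPM in WT TAMs and 4.44, 9.51 and 26.7 TPM in C5aR-/- TAMs. Twist2, below the filter, was at 0.83, 0.17 and 0.19 TPM in WT TAMs and 0.19, 18.1 and 16.8 TPM in C5aR-/- TAMs. The epithelial list summed to 1916, 1849 and 2047 TPM in WT and 2215, 2209 and 1773 TPM in C5aR-/- TAMs, with 0 of 7 tested genes past the threshold and Krt5 listed at 0. It was led by Krt19 at 892, 831 and 1102 TPM in WT TAMs and 745, 1001 and 433 TPM in C5aR-/- TAMs. Krt14 was at 8.04, 5.2 and 7.27 TPM in WT TAMs and 3.99, 46.55 and 104.1 TPM in C5aR-/- TAMs, a difference of 1.92 (SE 1.03, limma adjusted p = 0.446). In this list 1 gene passed as higher without C5aR-/- TAM 1 (4.19% of all genes) and 1 as lower without C5aR-/- TAM 2 (3.16%). Among the endothelial markers 1 of 7 tested, Plvap, passed as higher, with a limma unadjusted p of 0.0497, against 2.13% of all tested genes as higher. That call was lost without any 1 library other than C5aR-/- TAM 1, and with a pseudocount of 0.1, the replicate block or no filter. Esam was the most abundant, at 62.8 to 125 TPM. The mural list summed to 8.94, 12.5 and 18.1 TPM in WT and 8.29, 23.6 and 14.1 TPM in C5aR-/- TAMs, led by Acta2, with 0 of 3 tested genes past the threshold.

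**Figure D4:**
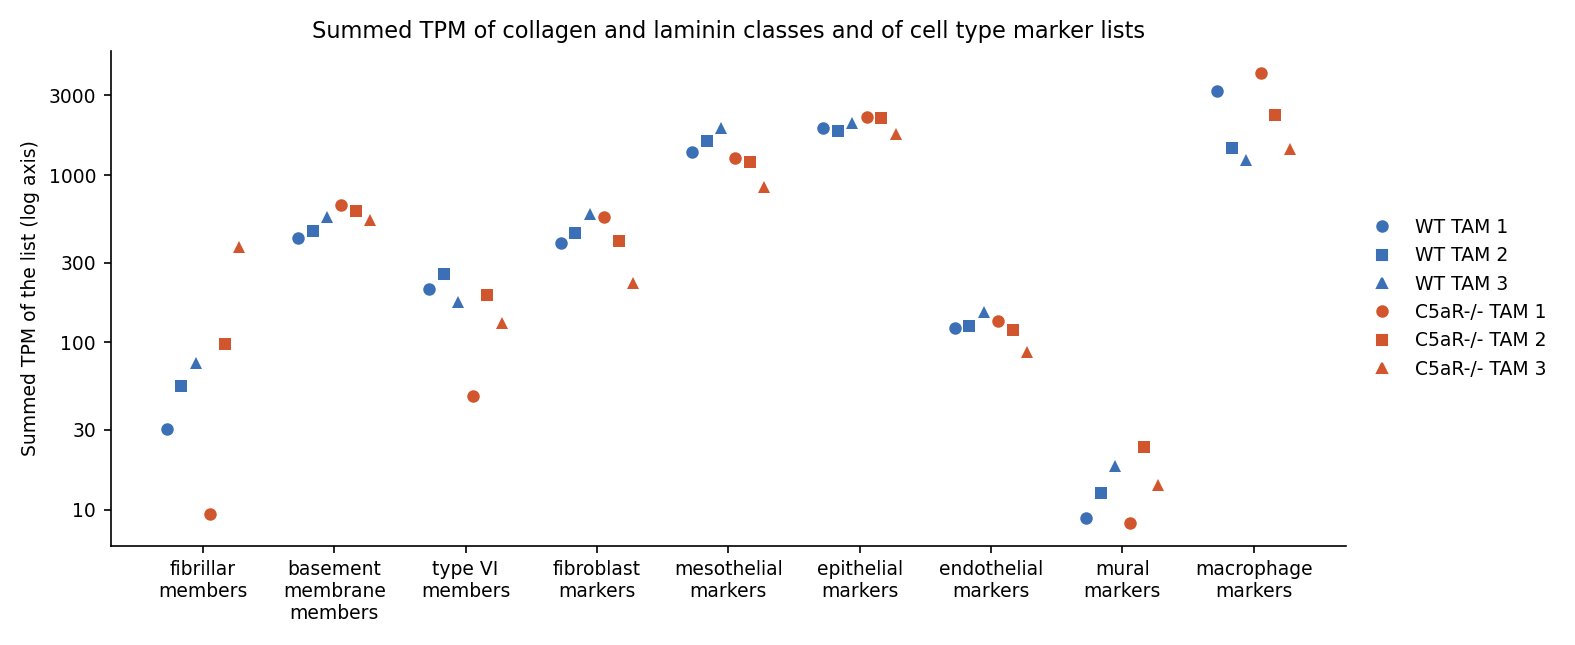
Summed TPM per library, on a log axis, of 3 classes of collagen and laminin genes and of 6 lists of cell type markers (blue WT, orange C5aR-/-; Dcn is most of the fibroblast sum). The fibrillar sum runs from 9.35 to 373 TPM among the C5aR-/- libraries, and the mesothelial sum is lower in each C5aR-/- library than in each WT library.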

How the data were processed

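RNA of sorted TAMs was sequenced in 3 WT and 3 C5aR-/- libraries. The authors deposited one table of TPM values per gene, 1000000 per library, without counts. The submitters' processing notes name fastp, HISAT2, StringTie, RSEM, DESeq2 and mm10, the build that GRCm38 names also; versions and the annotation release are not given in the sources used here. The study's methods describe poly(A)-selected, strand-marked libraries and FPKM values, and the deposited unit was taken as TPM from the table and its sums.

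Ensembl IDs were matched to GENCODE M21 symbols (52073 of 56980), and promoters came from RefSeq. Genes with at least 1 TPM in at least 3 libraries were tested with limma 3.58.1 (R 4.3.3) on log2(TPM + 1), with a variance trend, no covariates, and Benjamini-Hochberg adjustment. The call used p under 0.05 and at least a 2-fold difference. Steps were tested on simulated data. With 3 libraries against 3, an exact permutation test cannot go below 0.1, so none was run.

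Of the 55 genes that fit the symbol rule, 1 is not reported here. The genes, their classes and the partner and marker lists were chosen with earlier results of these data known. Named in full were C5ar1, called genes, the 3 most abundant fibrillar and basement membrane genes, partner chains of a trimer, list genes past the threshold (the 6 with the smallest p where over 6 passed), and the most abundant markers and those at 0. The fit was repeated with a pseudocount of 0.1, without the filter, with a filter of 5 TPM, with quantile and median-of-ratios scaling, without the variance trend, with a replicate block, and leaving out each library. The authors' group mean columns were not used.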

Additional observations from a re-analysis of the deposited data

How the results depend on the processing

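Of the 27 tested collagen and laminin genes, 21 kept the sign of their difference under every alternative, and 5 of the 6 called genes other than Col22a1 stayed past the unadjusted threshold in all of them (Col4a1, Col4a2, Col17a1, Col1a2 and Col6a2, where tested). The count of called collagen and laminin genes was 5 with the filter at 5 TPM, which tested 17 of them, and 7 under the other alternatives that kept all libraries. Leaving out 1 library gave 6 to 14, with 14 without C5aR-/- TAM 1. These counts include Col22a1 where it was tested. The count over all genes at the unadjusted threshold was 475 with the filter at 5 TPM, which tests fewer genes, and 567 to 1266 with 1 library left out, with 1266 without C5aR-/- TAM 1. At the adjusted threshold 2 genes passed without the variance trend, and 0 to 356 with 1 library left out: 356 without C5aR-/- TAM 1, 1 without TAM 2 and 3 without TAM 3. C5ar1 ranged from -5.63 to -4.45 with 1 library left out and passed the adjusted threshold without C5aR-/- TAM 1, at -5.16 with a limma adjusted p of 0.0221 (0.0221 to 0.329 over the alternatives). The cause of these shifts was not tested. Among list genes past the threshold, no difference changed sign under any alternative.

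The difference of Col9a3 turned to 0.01 under quantile normalization. With 1 library left out the sign turned for Col4a5 (-0.38 to 0.03), Col9a3 (-0.23 to 0.15), Col14a1 (-0.26 to 0.05), Col6a3 (-0.16 to 1.82), Lama3 (-0.56 to 0.22), Col5a2 (-0.07 to 1.40) and the fibrillar median (-0.07 to 1.40). The labels give same-numbered libraries of the groups a number in common and do not say whether they were paired. Their deviations from the group means correlated at 0.19, -0.01 and 0.27, which cannot show whether they were. The fit with the number as a replicate block called 0 genes at the adjusted threshold and 811 at the unadjusted one, 7 of these being collagen and laminin genes. TPM keeps no depth, so counting error could not be given for low genes such as Col22a1.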
